A study of Mus musculus with 16 samples.

Results

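The genes described here encode the matrix metalloproteinases (Mmp), the ADAM and ADAMTS metalloproteinases, the ADAMTS-like proteins (Adamtsl) and the tissue inhibitors of metalloproteinases (Timp). They were chosen by symbol, as all probe sets whose only gene symbol in the platform annotation began with Mmp, Adam, Adamts, Adamtsl or Timp followed by a digit. The rule gave 114 of the 28898 probe sets with 1 symbol, and these named 66 of 17097 genes: 18 Mmp, 26 Adam, 14 Adamts, 5 Adamtsl and 3 Timp genes. The study measured total RNA of colon fibroblasts on Affymetrix expression arrays, with 16 arrays from 4 sorted populations that the labels assign to the same 4 mice. All mice were C57BL/6, carried Gli1CreERT2-ZsGreen and had received 1 mg tamoxifen on each of 5 days. In this design tamoxifen activates a Cre recombinase driven from the Gli1 locus, which switches on the green ZsGreen reporter. Gli1 is a transcription factor and target of Hedgehog signalling. The treatment protocol places the isolation of the colons at day 6, whereas the time point label reads 5 days after the injection. All cells shared the gate Epcam-, CD45-, CD31- and GP38+. Within it, Sca1+ cells were divided into reporter-high, reporter-dim and reporter-negative cells, and the fourth population was Sca1- and reporter-negative. The reporter marks cells in which Cre had recombined, so a reporter-negative gate can hold cells that escaped recombination.

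Matrix metalloproteinases are zinc enzymes that are made as inactive proenzymes and cut collagens, other matrix proteins and many cell surface and secreted proteins. Most ADAMs are membrane proteins, and those with an intact active site release growth factors, cytokines and receptors from the cell surface. ADAMTS enzymes are secreted and process procollagens, proteoglycans and microfibril proteins, and the ADAMTS-like proteins share their ancillary domains without a protease domain. TIMPs bind the active enzymes and block them, and in the gut wall fibroblasts are a known source of both proteases and inhibitors.

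Signals, the whole-number probe set intensities behind the deposited values, were compared on the log2 scale with limma across all 17097 genes. Adjusted p-values are Benjamini-Hochberg values over these genes, and a gene was called at an adjusted p under 0.05. Differences are log2 with the standard error (SE) of the fit. Array medians lay between 661 and 686, and the highest of the 23 nonspecific control probe sets, used here as background, lay between 234 and 488. The fibroblast list of 14 genes, with Pdgfra, Col1a1 and Dcn among them, was above background in every population. The gate was not free of other RNA. None of the 19 epithelial genes measured was at background on all 4 arrays of any population, although cells were sorted as Epcam-. The summed epithelial signal was 45232 to 182002 in reporter-high cells, 199072 to 348464 in reporter-dim cells, 307481 to 451889 in Sca1+ reporter-negative cells and 275772 to 484197 in Sca1- cells. Mouse 2 went against its label: Xist, which is expressed in females, read 487 and 424 on its reporter-high and reporter-dim arrays and 18116 and 19209 on its other arrays, and the Y-linked Eif2s3y read 3111 and 3095 against 146 and 197. Results are therefore also given without mouse 2. On the arrays of mouse 1 Xist read 466 to 671 and Eif2s3y 2901 to 3059. Those of mice 3 and 4 read 18153 to 24417 and 137 to 161. Arrays with low Xist were thus those of mouse 1 in every population and of mouse 2 in the reporter-positive ones alone. Sex was therefore unbalanced between reporter-positive and reporter-negative populations, and its part in the results was not tested. The mouse 1 array of the Sca1- cells stood apart, with higher fibroblast, endothelial, glial and smooth muscle sums and a lower epithelial sum than the other arrays of that population. In sorted bulk samples such as these, fewer cells of a type and less RNA per cell cannot be told apart.

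Detection differed between the members. Of the 66 genes, 41 were above background on all 16 arrays, 12 on 1 to 15 arrays and 13 on none. Per array, 59.3% to 81.5% of all probe sets other than controls were above background. Members were read on the brightest probe set of each gene, and the share of all genes on all 16 arrays was not counted. All 3 Timp genes and all 5 Adamtsl genes were among the 41. In contrast, 3 of the 4 interstitial collagenases (Mmp13, Mmp1a and Mmp1b) were above background on no array, and the fourth, Mmp8 of neutrophils, on 1. Among the 14 Adam genes outside the fixed lists of somatic and neural ADAMs, Adam4 and Adam1b were above background on all arrays. The moderated F test called a difference among the 4 populations for 33 of the 66 genes, against 32.3% of all genes. Without mouse 2 it called 19, for which the share of all genes was not counted.

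**Figure D1:**
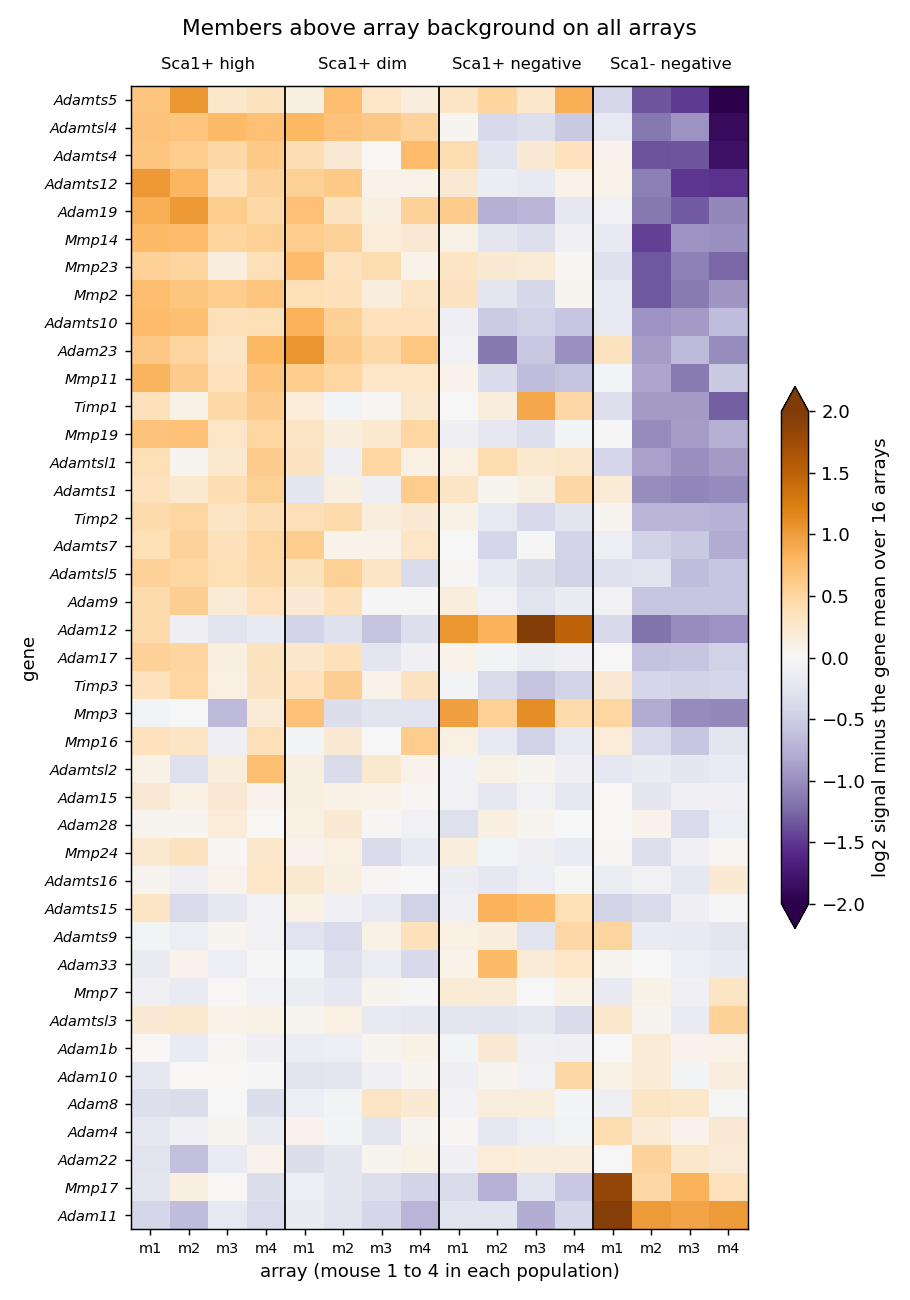
Heat map of the 41 genes above array background on all 16 arrays, with arrays as columns in the order of mice 1 to 4 within each population and colour giving the log2 signal minus the mean of that gene over the 16 arrays. Rows run from genes low in Sca1- cells, led by Adamts5 and Adamtsl4, to Mmp17 and Adam11, which were high there; Adam12 was high on all 4 Sca1+ reporter-negative arrays.

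The first comparison asked how Sca1+ cells with high reporter differed from Sca1+ cells without it. In reporter-high cells Mmp14, Mmp2, Timp2, Timp3, Adamts10, Adamtsl4 and Adamtsl5 were among the higher members, and Adam23 rose the most, by 1.24. Adam12 fell by 1.36 and Mmp3 by 0.91. Of the 66 genes, 17 were higher and 4 lower, so that 31.8% were called against 30.9% of all genes; the total is near that background. Of all genes 17% were called higher and 13.9% lower. The median difference was 0.08 over the members and 0.00 over all genes.

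The inhibitors come first. Timp3 binds to the extracellular matrix and inhibits ADAM17 and the aggrecanases as well as MMPs. Its signals for mice 1 to 4 were 23586, 26013, 20120 and 22968 in reporter-high cells, 23520, 27342, 19535 and 22946 in reporter-dim cells, 17832, 14100, 12310 and 13606 in Sca1+ reporter-negative cells, and 21365, 13699, 13382 and 13644 in Sca1- cells. Every reporter-high array was above every Sca1+ reporter-negative array. The difference was 0.69 (SE 0.16, adjusted p = 0.0038), and the other 3 Timp3 probe sets gave 0.82, 1.00 and 1.04. Timp2, which inhibits MMPs and also bridges pro-MMP2 to MMP14 during activation, read 53011, 54975, 48073 and 51852 in reporter-high cells and 41584, 34433, 29585 and 32498 in Sca1+ reporter-negative cells. It read 50829, 52874, 42907 and 44820 in reporter-dim cells and 39919, 23626, 23773 and 23491 in Sca1- cells. The reporter-high and Sca1+ reporter-negative arrays did not overlap, and the difference was 0.60 (SE 0.15, adjusted p = 0.0078). Of its other 4 probe sets 3 were called higher (0.70 to 0.95) and 1 was not (0.35). Timp1, a soluble inhibitor, did not pass the test: its means were 2804 ± 399 and 2864 ± 839 (SD, n = 4), and the difference was 0.00 (SE 0.20).

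Mmp14 encodes MT1-MMP, the membrane enzyme that activates pro-MMP2 and cuts fibrillar collagen. It read 14827, 14776, 12372 and 12801 in reporter-high cells and 12986, 12656, 9831 and 10127 in reporter-dim cells. In Sca1+ reporter-negative cells it read 9369, 7329, 6984 and 8153, and in Sca1- cells 7660, 3166, 4483 and 4439. All reporter-high and reporter-dim arrays were above all Sca1+ reporter-negative arrays, and reporter-high cells were higher than the latter by 0.79 (SE 0.20, adjusted p = 0.0075). Mmp2, the gelatinase that cuts denatured collagen and type IV collagen, read 34271, 32632, 30907 and 32423 in reporter-high cells and 25666, 17447, 15442 and 21198 in Sca1+ reporter-negative cells. It read 27157, 26563, 22723 and 25315 in reporter-dim cells and 18043, 8152, 9345 and 10655 in Sca1- cells. The reporter-high arrays were above the arrays of every other population, and the difference from Sca1+ reporter-negative cells was 0.73 (SE 0.20, adjusted p = 0.011). The other gelatinase, Mmp9, a product of leukocytes in many tissues, was above background on 7 arrays, with means of 310 ± 10.4 and 339 ± 48.8 (SD, n = 4).

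The stromelysins did not move as 1 class. Mmp11, which is activated inside the cell by furin, read 7333, 6240, 5293 and 6556 in reporter-high cells, 6203, 5842, 5037 and 5068 in reporter-dim cells, 4315, 3187, 2626 and 2739 in Sca1+ reporter-negative cells, and 4015, 2308, 1889 and 2832 in Sca1- cells. Both reporter-positive populations were above both reporter-negative ones without overlap, and the difference of reporter-high from Sca1+ reporter-negative cells was 1.00 (SE 0.20, adjusted p = 0.0018). Mmp3, stromelysin 1, has a broad range of matrix substrates. It read 1261, 1295, 819 and 1488 in reporter-high cells, 2102, 1029, 1094 and 1081 in reporter-dim cells, 2554, 1925, 2811 and 1776 in Sca1+ reporter-negative cells, and 1828, 753, 645 and 633 in Sca1- cells. The reporter-high arrays lay below all Sca1+ reporter-negative arrays (-0.91, SE 0.32, adjusted p = 0.044). Mmp10, stromelysin 2, was dim, with means of 740 ± 102 in reporter-high and 530 ± 129 in Sca1+ reporter-negative cells (SD, n = 4), and was higher by 0.50 (SE 0.14, adjusted p = 0.015). Mmp19, a basement membrane protease, was higher by 0.71 (3310 ± 422 against 2020 ± 173, SD, n = 4).

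ADAM23 lacks a functional protease site and acts as an adhesion molecule and receptor, best known from neurons. Adam23 read 8083, 7401, 6461 and 8973 in reporter-high cells, 10831, 7895, 7218 and 8140 in reporter-dim cells, 4952, 2355, 3568 and 2659 in Sca1+ reporter-negative cells, and 6602, 2810, 3292 and 2589 in Sca1- cells. Every reporter-positive array was above every Sca1+ reporter-negative array, by 1.24 in reporter-high cells (SE 0.27, adjusted p = 0.003). In the fit over all probe sets both of its other probe sets were also called higher, the one with the smaller difference by 0.73.

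Of the 9 somatic ADAMs with an active protease, 4 rose and 2 fell. Adam19, a sheddase of neuregulins, read 9978, 11124, 8176 and 7548 in reporter-high cells and 8262, 3221, 3372 and 4746 in Sca1+ reporter-negative cells. It read 8957, 6839, 6013 and 7959 in reporter-dim cells and 5204, 2472, 2187 and 2664 in Sca1- cells. The Sca1+ reporter-negative array of mouse 1 overlapped with the reporter-high arrays, and the difference was 1.00 (SE 0.29, adjusted p = 0.017). The sheddases Adam9, Adam17 and Adam15 were higher by 0.47, 0.43 and 0.30. In the fit over all probe sets, a further Adam17 probe set at 0.45 was called and another at 0.15 was not. Adam10, the sheddase of Notch receptors and cadherins, was not called at the gene level in any of the 6 comparisons. Its means were 5914, 5601, 6609 and 6602 from reporter-high to Sca1- cells. In the limma fit over all probe sets, another Adam10 probe set was called lower in reporter-dim than in Sca1- cells (-0.25, adjusted p = 0.045).

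Adam12, a membrane and secreted protease expressed in activated mesenchymal cells, was the gene that set the Sca1+ reporter-negative cells apart from all other populations. It read 2938, 2579, 5573 and 4024 there, against 1958, 1341, 1187 and 1262 in reporter-high cells, 1053, 1167, 953 and 1150 in reporter-dim cells, and 1095, 634, 718 and 738 in Sca1- cells. No array of another population reached the lowest of these 4 arrays. Reporter-high cells were lower by -1.36 (SE 0.23, adjusted p = 0.00058), and a dimmer second probe set gave -0.93. Adam33, an ADAM of airway and other mesenchyme, had a smaller pattern of this kind. It read 1310, 1522, 1342 and 1430 in reporter-high cells, 1420, 1181, 1328 and 1105 in reporter-dim cells, 1551, 2497, 1669 and 1771 in Sca1+ reporter-negative cells, and 1489, 1439, 1345 and 1287 in Sca1- cells. The Sca1+ reporter-negative arrays were above all others, and reporter-high cells were lower by -0.40 (SE 0.13, adjusted p = 0.026).

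Among the secreted ADAMTS enzymes and their relatives, Adamts10, which binds fibrillin and is mutated in a form of Weill-Marchesani syndrome, read 5780, 5689, 4470 and 4516 in reporter-high cells and 3206, 2370, 2484 and 2304 in Sca1+ reporter-negative cells. It read 6141, 5017, 4376 and 4388 in reporter-dim cells and 3007, 1750, 1827 and 2177 in Sca1- cells. The reporter-positive arrays were all above the reporter-negative ones, and reporter-high cells differed from Sca1+ reporter-negative cells by 0.98 (SE 0.17, adjusted p = 0.00073). A second Adamts10 probe set was not called (0.15, SE 0.21). Adamtsl4, a microfibril protein whose loss displaces the lens, read 11150, 11003, 11875 and 11441 in reporter-high cells and 12059, 11144, 10774 and 10003 in reporter-dim cells. In Sca1+ reporter-negative cells it read 7142, 5278, 5616 and 4785, and in Sca1- cells 6109, 3137, 3587 and 1895. The populations separated by reporter without overlap, and the difference was 1.01 (SE 0.24, adjusted p = 0.0052). Adamtsl5, another microfibril protein, was higher by 0.71 (1942 ± 79.8 against 1194 ± 175, SD, n = 4). Adamts7, which cuts cartilage oligomeric matrix protein, was higher by 0.68 (3110 against 1966), and Adamtsl3 by 0.43.

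Of the 7 proteoglycan-cutting ADAMTS genes 1 was called, Adamts15, a versican-cutting enzyme, which was lower. It read 2232, 1380, 1562 and 1716 in reporter-high cells, 1953, 1696, 1572 and 1315 in reporter-dim cells, 1702, 3218, 3093 and 2385 in Sca1+ reporter-negative cells, and 1332, 1403, 1691 and 1769 in Sca1- cells. Mouse 1 did not share the difference, which was -0.57 (SE 0.20, adjusted p = 0.037; with the mouse as a block, adjusted p = 0.0505). For Adamts9, a versican and aggrecan protease, the probe sets disagreed: the brightest gave -0.17 (SE 0.19) and a second one was called higher by 0.72. For the membrane-type Mmp16, the gene-level difference of 0.41 was not called, whereas 2 further probe sets were called at 0.89 and 0.69.

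Lists of genes that act with these enzymes are read against the 30.9% of all genes called in this comparison. In the list of activators, inhibitors and partners, 9 of 21 measured genes were higher and 3 lower. The membrane inhibitor Reck was higher by 1.30 (4632 against 1941) and the proprotein convertase Pcsk5 by 1.31, while Tspan15, a tetraspanin partner of ADAM10, was lower by -1.79. Of 9 plasminogen system genes, the plasminogen receptor gene Plgrkt was lower by -0.51 and Anxa2, which binds plasminogen and its activator, was higher by 0.43. Among 16 procollagen-processing and other proteases 7 rose and 4 fell, and the lysosomal protease gene Ctss (-2.19), the dipeptidyl peptidase gene Dpp4 and the meprin gene Mep1b (-1.90) fell the most. Among 22 substrates 5 rose and 4 fell: the proteoglycan gene Vcan was higher by 1.21, and Cdh1 and Hbegf, which epithelium also expresses, were lower by -2.77 and -2.53. All 19 epithelial marker genes measured were lower in the same comparison (median -2.50). The part of epithelial RNA in the falls of Tspan15, Dpp4, Mep1b and the other list genes was not tested.

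Epithelial RNA and other markers also differed between these populations. All 19 epithelial genes were lower in reporter-high cells (median -2.50), 9 of 14 fibroblast genes were higher (median 0.60) and 9 of 11 smooth muscle genes were higher (median 1.31; sums of 97770 to 156707 against 28206 to 72814). Of 16 endothelial genes 10 were lower and 1 higher, with sums of 17381 to 18359 against 19428 to 27627; in addition 2 of 3 markers of interstitial cells of Cajal (median -1.22), 4 of 8 mesothelial and 3 of 16 leukocyte genes were lower. RNA and signal measures moved too: the Actb 3'/5' ratio was 1.22 to 1.29 in reporter-high arrays and at most 1.13 in Sca1+ reporter-negative arrays, that of Gapdh was 0.978 to 1.01 against 0.948 to 0.966, and 76.7% against 65.6% of probe sets were above background on average. The part of these other markers and measures in the results was not tested. With the mean of the epithelial list as a covariate, which itself differed between the populations, limma called 0 of the 66 genes (5 at an unadjusted p under 0.05). Adam12 was then -1.84, Mmp2 0.02 and Mmp14 -0.05. Since the covariate differed with the population, the parts of the 2 cannot be told apart in this fit. The share of all genes called under this and the other alternative fits was not counted, so their counts have no background beside them. When arrays were scaled to the spiked hybridization controls instead, the median of all genes shifted by 0.38 and 50 members were called, 49 of them higher; Adam12 remained lower (-0.98), and Mmp3, Adam33 and Adamts15 were no longer called. Without mouse 2, 8 calls remained (Adam12, Adam15, Adam23, Adamts10, Adamtsl5, Mmp11, Mmp14 and Timp3), and without mouse 4 there were 12. Mmp3 stood at -1.02, Mmp2 at 0.68, Timp2 at 0.57, Adam19 at 0.74, Adamtsl4 at 0.99, Adamts7 at 0.58, Mmp19 at 0.64, Adam33 at -0.29 and Adamts15 at -0.36 without mouse 2, with adjusted p from 0.055 to 0.33. The calls of Adam12, Adam23, Adamts10, Adamtsl5, Mmp11 and Timp3 were ended by no mouse and no single array left out. The call of Timp2 also ended without mouse 4 and that of Mmp14 only without mouse 4, while those of Mmp2, Adam19, Adam33, Adamts15 and Mmp3 also ended without mouse 3 or mouse 4. Single arrays ended the calls of Adam19 (3 arrays), Adam33 (3 arrays), Adamts15 (6 arrays) and Mmp3 (9 arrays), with Mmp3 between -1.12 and -0.62 over all removals.

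**Figure D2:**
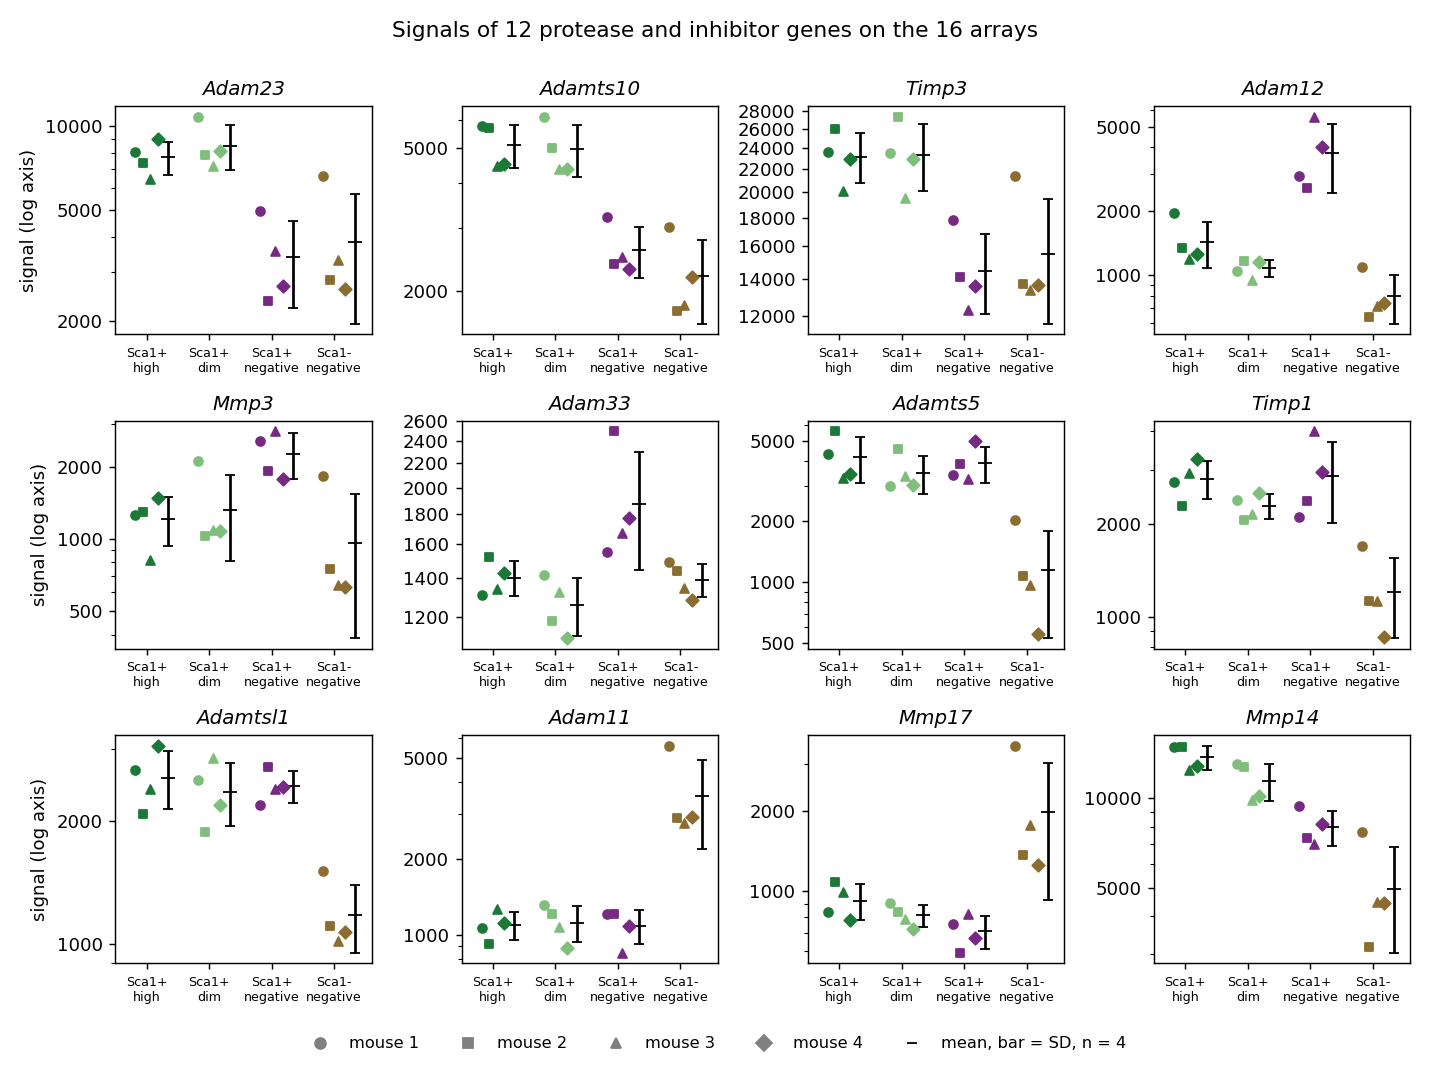
Signals of 12 genes on the 16 arrays, on log axes whose range differs between panels; symbols mark the mouse, colours the population, and the black bar the mean and SD (n = 4). Adam23, Adamts10 and Timp3 were high in both reporter-positive populations, Adam12 in Sca1+ reporter-negative cells (2579 to 5573), and Adam11 in Sca1- cells (2773 to 5587).

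The second comparison set reporter-dim against Sca1+ reporter-negative cells. It shares the latter arrays with the first comparison, so its values stand beside those above and are not an independent repeat. Adam23 (1.38, SE 0.27, adjusted p = 0.032), Adamts10 (0.94, SE 0.17, adjusted p = 0.021) and Timp3 (0.69, SE 0.16, adjusted p = 0.043) were higher in reporter-dim cells. Adam12 (-1.74, SE 0.23, adjusted p = 0.0019) and Adam33 (-0.55, SE 0.13, adjusted p = 0.043) were lower. These 5 genes were 7.58% of the members, against 1.51% of all genes (0.901% higher and 0.608% lower). In all 5 the arrays of the compared populations did not overlap. The genes were called on these same arrays, so this adds no support, and the share of all genes without overlap was not counted. Other probe sets, in the fit over all probe sets, were called in part. For Adam23 one was called (1.24) and one was not (0.46), and for Timp3 those at 0.89 and 0.85 were called and that at 0.92 was not. The second probe sets of Adamts10 (0.69), Adam12 (-0.98) and Adam33 (-0.62) were not called.

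Further members came close without passing: Mmp11 (0.81, adjusted p = 0.058), Adamtsl4 (0.96, adjusted p = 0.059), Adamts15 (-0.64, adjusted p = 0.097) and Timp2 (0.48, adjusted p = 0.11). With the mouse as a block 16 members were called, 13 higher and 3 lower, and the share of all genes called by that fit was not counted. Such a block takes the mouse 2 arrays as from the same animal, although their Xist and Eif2s3y signals went against that. The 11 additional genes were Adam15, Adam19, Adamts7, Adamtsl4, Adamtsl5, Mmp11, Mmp12, Mmp14, Mmp19 and Timp2, all higher, and Mmp3, which was lower (-0.82, adjusted p = 0.048). Of these, Mmp12 was at background on every Sca1+ reporter-negative array and above it on 1 reporter-dim array alone. Of the accompanying lists 1 gene passed, the serine protease gene Htra3, higher by 0.74 (12042 against 7195).

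Epithelial genes were less different here than in the first comparison: none of 19 was called in reporter-dim against Sca1+ reporter-negative cells (median -0.68), and 1 of 14 fibroblast genes was higher. Of the endothelial, Cajal and mesothelial lists 1 gene each was lower, and the Gapdh 3'/5' ratio was 1.00 to 1.03 in reporter-dim against 0.948 to 0.966 in the other arrays; their part was not tested. With the epithelial list as a covariate Adam12 (-1.89) and Adamts10 (0.69) were called, and Adam23 (1.11) was not. Without mouse 2, Adam12 alone was called (-1.95, adjusted p = 0.029), with Adam23 at 1.25, Adamts10 at 0.89, Timp3 at 0.61 and Adam33 at -0.38. The number of calls was 1 without mouse 3, 0 without mouse 4 and 15 without mouse 1. Single arrays mattered as well. It fell to 1 when a reporter-dim array (mouse 1 or mouse 2) or a Sca1+ reporter-negative array (mouse 2, mouse 3 or mouse 4) was left out. It was 3 when a reporter-high array (mouse 1, mouse 2 or mouse 4) or the Sca1- array from mouse 2 was left out. For mouse 1 it rose to 12 when its Sca1+ reporter-negative array was left out and to 13 when its Sca1- array was. The Adam12 call ended only without mouse 4, where limma called 0 members (14 at an unadjusted p under 0.05).

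Reporter-high and reporter-dim cells were then compared with each other. Over the 66 genes the differences ran from -1.10 (Mmp12) to 0.39 (Adam12), with a median of 0.05. limma called 0 of them, against 1.42% of all genes (0.485% higher and 0.93% lower), and 4 had an unadjusted p under 0.05. In the fit over all probe sets, 1 dim Mmp16 probe set was called higher in reporter-high cells (0.46, adjusted p = 0.037), while the brightest one was at 0.04. Mmp12, the macrophage elastase, read 248, 263, 244 and 673 in reporter-dim cells and 174, 137, 143 and 150 in reporter-high cells. The dim arrays were all higher, but the gene passed background on the dim array of mouse 4 alone, so no fold bound is given. Mmp12 was not called (limma, adjusted p = 0.0502). Adam12 was 0.39 (SE 0.23), Mmp2 0.36 (SE 0.20), Mmp14 0.27 (SE 0.20), Adam23 -0.13 (SE 0.27) and Timp3 -0.01 (SE 0.16). A missed threshold does not show the cells to be alike in these genes.

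With the mouse as a block 2 members were lower in reporter-high cells, Mmp12 and Adam8, a leukocyte ADAM (-0.34, adjusted p = 0.039). A lower Mmp12 was also called (adjusted p = 0.033) when the Sca1- array from mouse 1 was left out. There was 1 lower call, too, when all arrays from mouse 1 or its reporter-dim array were left out. In the accompanying lists Ctss (-1.67), Mep1b (-1.44), Mep1a (-1.21), Cdh1 (-1.96) and Hbegf (-1.75) were lower in reporter-high cells, as were 9 of 19 epithelial genes, and 4 of 11 smooth muscle genes were higher. Scaling to the hybridization controls shifted the median of all genes by 0.33 and called 29 members, 28 of them higher.

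The third comparison took reporter-negative cells and asked how Sca1+ differed from Sca1- cells. The Sca1+ cells were higher in a set of proteoglycan-cutting ADAMTS genes (Adamts5, Adamts4 and Adamts1), in Adam12, Mmp3 and Mmp2, and in the inhibitor gene Timp1. The Sca1- cells were higher in Adam11 and Mmp17. Of the 66 genes 9 were higher and 2 lower in Sca1+ cells, 16.7% against 2.45% of all genes (1.22% higher and 1.23% lower). The median difference was 0.06 over the members and 0.00 over all genes.

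Adamts5 and Adamts4 encode the main aggrecanases, which also cut versican. Adamts5 read 3386, 3859, 3258 and 4991 in Sca1+ reporter-negative cells and 2039, 1071, 967 and 555 in Sca1- cells. It read 4317, 5588, 3281 and 3451 in reporter-high cells and 3002, 4552, 3340 and 3018 in reporter-dim cells. The 3 Sca1+ populations overlapped with each other and stood above all Sca1- arrays; Sca1+ reporter-negative cells were higher by 1.88 (SE 0.30, adjusted p = 0.0023). Of its other probe sets 2 were higher by 1.95 and 1.05, and 1 lay at background. Adamts4 read 17316, 10694, 14850 and 16306 in Sca1+ reporter-negative cells and 13488, 4954, 4996 and 3654 in Sca1- cells. It read 20356, 19195, 17725 and 19600 in reporter-high cells and 17018, 14907, 12841 and 21596 in reporter-dim cells. The Sca1- array of mouse 1 overlapped with the Sca1+ arrays, and the difference was 1.30 (SE 0.30, adjusted p = 0.032). Adamts1, which cuts versican and neighbours Adamts5 on chromosome 16, was higher by 0.96 (5257 ± 729 against 2900 ± 1439, SD, n = 4; adjusted p = 0.049).

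Among the 66 members Adam12 showed the largest difference of this comparison, 2.21 (SE 0.23, adjusted p = 5.9e-05), with all 4 Sca1+ reporter-negative arrays above all Sca1- arrays. Mmp3 was higher by 1.36 (SE 0.32, adjusted p = 0.035), although its Sca1- array of mouse 1 read as high as the lower Sca1+ arrays. Mmp23, a membrane-anchored metalloproteinase, was higher by 1.17 (4007 ± 320 against 1852 ± 694, SD, n = 4). Adamtsl1, a matrix protein of the ADAMTS-like group, was higher by 1.06 (2430 ± 213 against 1174 ± 223, SD, n = 4; adjusted p = 0.00083). Mmp2 was higher by 0.83 (SE 0.20, adjusted p = 0.037).

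Timp1 was the inhibitor called at the gene level. It read 2739, 2296, 2932 and 3250 in reporter-high cells, 2401, 2060, 2158 and 2520 in reporter-dim cells, 2110, 2380, 4005 and 2961 in Sca1+ reporter-negative cells, and 1698, 1132, 1132 and 862 in Sca1- cells. All Sca1+ arrays were above all Sca1- arrays, with a difference of 1.25 between the reporter-negative populations (SE 0.20, adjusted p = 0.0026). Timp2 (0.35, SE 0.15) and Timp3 (-0.09, SE 0.16) did not pass here. Of the other 4 Timp2 probe sets, however, 2 were called higher in Sca1+ cells (0.73 and 0.71, adjusted p = 0.039 each), and none of the other 3 for Timp3 was called.

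Adam11 encodes another ADAM without protease activity, known from neurons. It read 5587, 2900, 2773 and 2910 in Sca1- cells, against 1069, 923, 1260 and 1111 in reporter-high cells, 1307, 1205, 1078 and 884 in reporter-dim cells, and 1211, 1211, 850 and 1085 in Sca1+ reporter-negative cells. The Sca1- arrays were above all 12 Sca1+ arrays, so Sca1+ reporter-negative cells were lower by -1.65 (SE 0.20, adjusted p = 0.00028), and a second probe set gave -1.09. Mmp17, the membrane-anchored MT4-MMP, read 3509, 1369, 1770 and 1256 in Sca1- cells. It read 836, 1082, 995 and 780 in reporter-high cells, 909, 839, 790 and 725 in reporter-dim cells, and 754, 590, 823 and 669 in Sca1+ reporter-negative cells. No Sca1+ array reached the Sca1- arrays, and the difference was -1.36 (SE 0.24, adjusted p = 0.0049).

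In the accompanying lists Pcolce2, an enhancer of procollagen C-proteinase, was higher in Sca1+ cells by 2.38 (6418 against 1260, adjusted p = 2.8e-06). Pcolce (0.84), Htra3 (0.84), the tissue plasminogen activator gene Plat (1.05), the protease inhibitor gene Tfpi2 (1.49) and the shed receptor gene Il6ra (0.74) were also higher. Thbs2, a matrix glycoprotein involved in MMP2 clearance, was lower by -1.15. In all, 1 of 21 activator and inhibitor genes, 1 of 9 plasminogen genes, 3 of 16 processing genes and 1 of 22 substrate genes were higher, and 1, 0, 1 and 0 were lower.

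Epithelial genes did not move with this comparison (0 of 19 called, median 0.03), and with their mean as a covariate 17 members were called, with Adam12 at 2.21 and Adamts5 at 1.88. Other markers did move. The markers of interstitial cells of Cajal (Kit, Ano1 and Etv1, 3 of 3 lower in Sca1+ cells) summed to 18266 to 28488 in Sca1- cells, 7483 to 10802 in Sca1+ reporter-negative cells, 4638 to 8416 in reporter-dim cells and 4286 to 5221 in reporter-high cells. Of 6 glial and neuronal markers 3 were lower in Sca1+ cells, with sums of 4671 to 8754 in Sca1- cells and 3278 to 3449 in Sca1+ reporter-negative cells, where 3 of the 6 were at background. Of 11 smooth muscle genes 2 were lower in Sca1+ cells (median -0.44), with sums of 28206 to 72814 against 52068 to 120724 in Sca1- cells. Fibroblast genes were higher in Sca1+ cells in 3 of 14 cases (median 0.51). The Gapdh 3'/5' ratio was 0.948 to 0.966 in Sca1+ reporter-negative and 0.902 to 0.941 in Sca1- arrays. The part of these cells and of RNA quality in the results for Adam11, Mmp17 and the other members was not tested.

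Without mouse 2, 5 calls remained: Adam11 (-1.78), Adam12 (2.28), Adamts5 (1.88), Adamtsl1 (0.99) and Timp1 (1.31). The other 6 kept their direction, with Mmp3 at 1.36, Adamts4 at 1.36, Adamts1 at 0.93, Mmp2 at 0.74, Mmp23 at 1.05 and Mmp17 at -1.41. The number of calls was 4 without mouse 3, 5 without mouse 4, and 7 when a Sca1- array (mouse 2 or mouse 4) or the Sca1+ reporter-negative array from mouse 4 was left out. It was 17 without mouse 1 and 18 when only its Sca1- array was left out, where Adam9, Adamts12, Adamts3, Adamtsl4, Mmp14, Mmp19 and Timp2 were called as well. The calls of Adam11, Adam12, Adamts5 and Adamtsl1 were ended by no mouse and no single array left out. That of Timp1 ended without mouse 3 or 4 (1.06 to 1.56 over all removals), that of Mmp17 without mouse 2 or 3 and that of Mmp23 without mouse 2, 3 or 4. Those of Adamts1, Adamts4, Mmp2 and Mmp3 ended without mouse 2, 3 or 4 and without any of 14, 6, 13 and 9 single arrays, respectively.

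**Figure D3:**
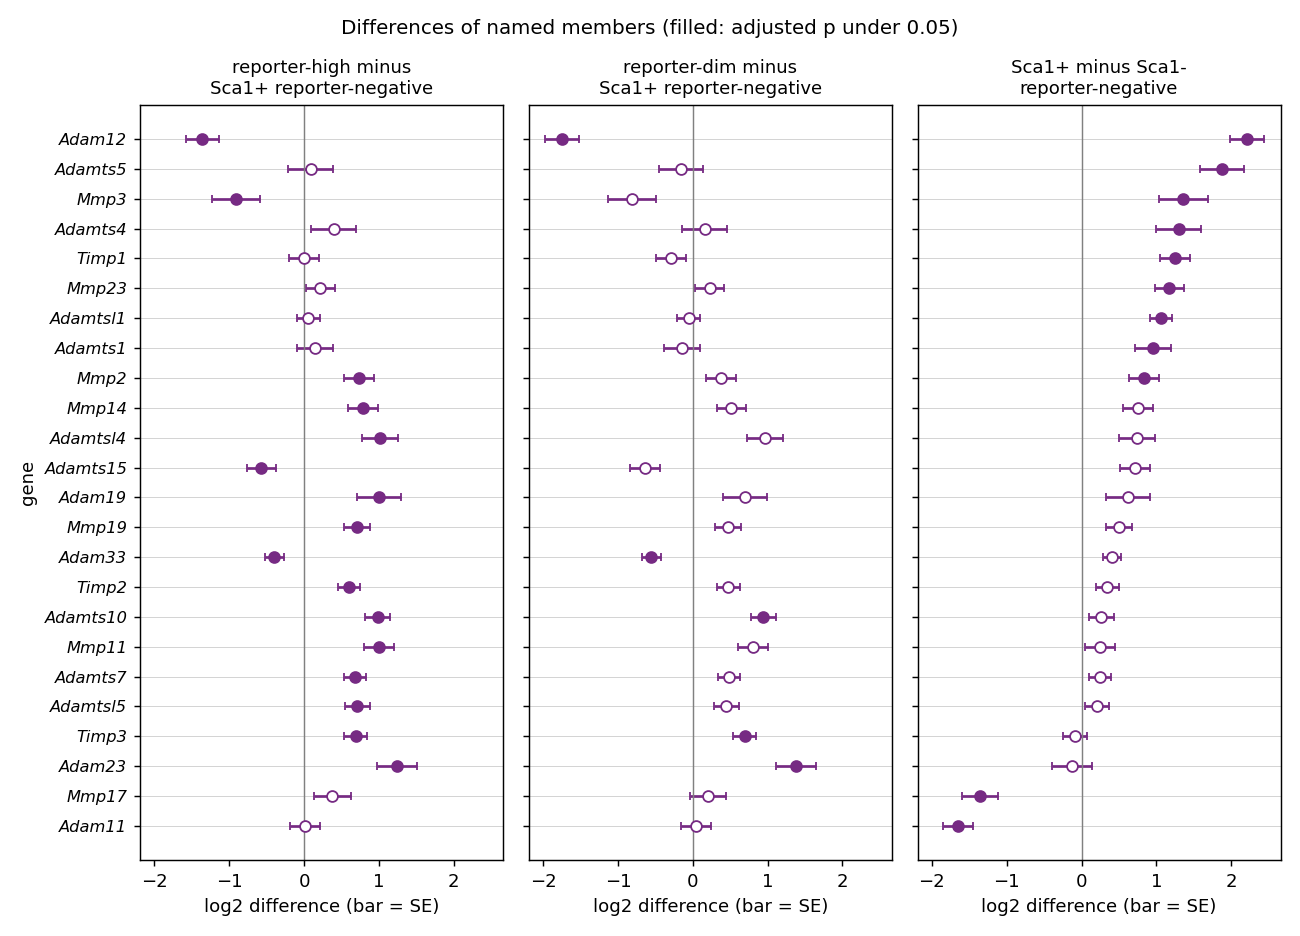
Log2 differences with SE for the members named in 3 comparisons, ordered by the difference between Sca1+ and Sca1- reporter-negative cells; filled points passed an adjusted p of 0.05. Adam12 was lower in both reporter-positive populations than in Sca1+ reporter-negative cells (-1.36 and -1.74) and higher in the latter than in Sca1- cells (2.21), while Adamts5 and Timp1 passed only in the third panel.

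Both reporter-positive populations were also compared with the Sca1- cells, which differ from them in Sca1 and in reporter. These comparisons share the Sca1- arrays. In reporter-high cells 26 members were higher and 5 lower, 47.0% against 35.9% of all genes (19.2% higher and 16.7% lower), and in reporter-dim cells 22 were higher and 2 lower, 36.4% against 13.9% of all genes (7.96% higher and 5.89% lower). The largest rises in reporter-high cells were Adamts5 (1.97), Adamtsl4 (1.75), Adamts4 (1.70), Adamts12 (1.69), which cuts cartilage oligomeric matrix protein, and Adam19 (1.63). In reporter-dim cells they were Adamts5 (1.72), Adamtsl4 (1.70), Adamts4 (1.46), Mmp23 (1.40) and Adamts12 (1.35). All 3 Timp genes were higher in both, by 1.25, 0.95 and 0.60 for Timp1, Timp2 and Timp3 in reporter-high cells and by 0.96, 0.82 and 0.61 in reporter-dim cells.

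Adam11 and Mmp17 were lower in both, by -1.64 and -0.98 in reporter-high cells and -1.61 and -1.15 in reporter-dim cells. Reporter-high cells were also lower in Adam22, a neural ADAM without protease activity (-0.49), Adam8 (-0.37) and Adam4 (-0.33). Adam12 was higher in reporter-high than in Sca1- cells by 0.85 (adjusted p = 0.0078). Adamts3, a procollagen N-proteinase, was at background on all Sca1- arrays, and its rise came to at least 1.02-fold in each (measured means 363 against 236). A second Adamts3 probe set was called in neither (0.27 in reporter-high and 0.10 in reporter-dim cells). In reporter-high against Sca1- cells all 19 epithelial genes were lower and 13 of 14 fibroblast genes were higher, and with the epithelial covariate 1 member, Adam11 (-1.99), was called. Lower there were also 12 of 16 endothelial, 3 of 3 Cajal, 3 of 6 glial, 5 of 16 leukocyte and 2 of 8 mesothelial genes, and 6 of 11 smooth muscle genes were higher; their part was not tested. In reporter-dim cells 12 of 14 fibroblast genes were higher, and 3 of 3 Cajal, 3 of 6 glial, 2 of 16 endothelial and 2 of 8 mesothelial genes were lower. Against Sca1- cells 1 epithelial gene was lower there, and 19 members were called with the covariate.

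Without mouse 2 there were 23 calls in reporter-high and 11 in reporter-dim cells. Of the inhibitors, Timp1 (1.33) and Timp2 (0.86) were then still called in reporter-high cells and Timp3 (0.49) was not, and none of the 3 was called in reporter-dim cells (0.99, 0.71 and 0.48). Adam12 (0.78, adjusted p = 0.052) and, in both, Adamts3 also lost their calls. Those of Adam22, Adam8 and Adam4 were lost (-0.27, -0.27 and -0.34), as were those of Adamts4 (1.42) and Adamts12 (1.23) in reporter-dim cells; without mouse 4 reporter-dim cells had 13. The Adam22 call also ended without mouse 3 or 1 of 2 single arrays, that of Adam8 without mouse 4 or 1 of 5 arrays, and that of Adam4 without mouse 1 or 4. The calls of Adamts4 and Adamts12 in reporter-dim cells also ended without mouse 4. The calls of Adamts5, Adamtsl4, Adam11 and Mmp17 in both comparisons, of Adam19, Adamts4 and Adamts12 in reporter-high cells and of Mmp23 in reporter-dim cells were ended by no mouse and no single array left out, with Adamts5 between 1.66 and 2.29 in reporter-high cells and Mmp17 between -1.20 and -0.62.

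A cluster of MMP genes on chromosome 9 held both detected and undetected genes. Mmp13, Mmp12, Mmp1b, Mmp3, Mmp1a, Mmp10 and Mmp8 follow each other there as neighbouring protein-coding genes of the RefSeq annotation, and Mmp20 and Mmp7 are neighbours on the same chromosome. Mmp3 and Mmp7, the matrilysin gene of epithelium, were above background on all 16 arrays and Mmp10 on 15, whereas Mmp12 and Mmp8 were above it on 1 array each and the other 4 on none. Mmp7 did not pass in any comparison (means 520, 518, 596 and 565). RefSeq promoters (GRCm38.p6, 250 bases before to 50 after the start) were at hand for 39 of the 66 genes, as 44 promoters. An AP-1 motif, TGAGTCA on either strand, was found in 9 of the 44, against 5.20% of all 32851 promoters. Those 9 belonged to Mmp3, Mmp10, Mmp12, Mmp13, Mmp1a, Mmp1b, Mmp7, Adam19 and Adam1b, so 7 of them lie in the chromosome 9 genes. A TATA box, TATAAA, was found in 12 of 44 (13.6% of all promoters), including all 9 chromosome 9 genes named here. A GC box, GGGCGG, was found in 21 of 44 (35.7% of all), and the Gli motif GACCACCCA in 0 of 44 (0.253% of all); a missing match says only that these letters are not in this window. No motif searched contains another. The promoters of Mmp3, Mmp10 and Mmp13 are shown because they carry the same pair of motifs while the genes differed in detection and direction: Mmp3 and Mmp10 were called in opposite directions in reporter-high cells, and Mmp13 stayed at background (means 139 to 146). Capitals mark the AP-1 motif, which begins 46, 63 and 35 bases before the start in Mmp3, Mmp10 and Mmp13, and the TATA box, which begins 7, 29 and 16 bases before it. All 3 lie on the plus strand, at chr9:7445572-7445871, chr9:7502092-7502391 and chr9:7272264-7272563.
Mmp3: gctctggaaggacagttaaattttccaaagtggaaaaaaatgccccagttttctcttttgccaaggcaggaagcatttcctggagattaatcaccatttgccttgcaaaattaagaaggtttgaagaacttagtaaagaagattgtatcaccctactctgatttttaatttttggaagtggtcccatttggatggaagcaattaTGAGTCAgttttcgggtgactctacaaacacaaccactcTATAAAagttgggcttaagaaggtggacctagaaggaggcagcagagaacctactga
Mmp10: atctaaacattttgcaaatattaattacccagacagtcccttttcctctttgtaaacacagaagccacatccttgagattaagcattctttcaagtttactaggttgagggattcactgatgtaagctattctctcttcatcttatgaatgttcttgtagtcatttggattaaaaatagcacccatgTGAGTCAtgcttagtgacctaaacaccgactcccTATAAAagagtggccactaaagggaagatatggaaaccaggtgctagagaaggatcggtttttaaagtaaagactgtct
Mmp13: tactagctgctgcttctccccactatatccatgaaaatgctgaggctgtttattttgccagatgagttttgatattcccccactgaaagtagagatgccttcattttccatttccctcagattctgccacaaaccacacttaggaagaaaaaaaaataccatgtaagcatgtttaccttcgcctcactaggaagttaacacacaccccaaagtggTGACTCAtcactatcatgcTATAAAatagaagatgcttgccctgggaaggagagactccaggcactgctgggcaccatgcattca
The AP-1 match reads TGAGTCA in Mmp3 and Mmp10 and its reverse complement TGACTCA in Mmp13. These matches describe the letters and show neither binding nor a cause of the levels.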

How the data were processed

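Total RNA of 16 sorted samples, 2 ng each, had been amplified and hybridized to Affymetrix arrays; per the submitters' processing notes, Affymetrix Expression Console 1.1 was used. How probes were summarized, background corrected and normalized was not given in the sources used here. Each deposited value is a score, standardized by the authors for each probe set over the 16 arrays. The design had assumed signals: the whole-number signals behind the scores were recovered for all 45141 probe sets by search, so that each score was met within 1e-09, and log2 of these signals was analysed.

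Genes were named from the platform annotation (28898 probe sets with 1 symbol, 551 with several, 15588 with none, 104 controls). Of several probe sets for a gene, the one with the highest mean log2 signal was kept, which left 17097 genes. limma 3.58.1 (R 4.3.3; lmFit, eBayes) fitted 1 mean per population to all 16 arrays, without a block, and Benjamini-Hochberg adjustment ran over all genes. For the first comparison alone, the fit was tested on simulated data with independent noise and no mouse effect. That test does not bear on the other comparisons or on arrays that share a mouse. p-values measure the spread between the samples of a population, which the labels assign to 4 mice. The number of arrays limits the precision. Same-numbered samples come from the same mouse per the labels: deviations from the population means correlated by 0.265 within a mouse on average (mice 1 to 4: 0.519, -0.0795, 0.507 and 0.112) and by -0.0893 between mice. Fold bounds set a gene at background against the higher of its own signal and array background.

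Members and lists were chosen with earlier results of these data known. Genes were named by a rule: a fixed set of 16 genes, and in each of the 4 main comparisons up to 12 rises and 12 falls (5 and 5 in the secondary ones) among called members above background. Of these, the 4 largest rises and falls and Mmp2, Mmp14 and the Timp genes got every array. Timp4 and Adamts2 of the fixed set, and Mmp15, Mmp21, Mmp25, Mmp27, Mmp28, Adamts13, Adamts14, Adamts17 and Adamts19, were not analysed here. Protein stretches had been planned; promoters are shown instead. Alternatives were the mouse as a block, other normalizations and background corrections, filters, probe set rules, an epithelial covariate, an intensity trend, fits on the deposited scores or on the arrays compared, and each mouse and array left out.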

Additional observations from a re-analysis of the deposited data

Results flagged for a closer look

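In the 18 genes described array by array, each over 4 populations, 5 of 72 groups held an array far from the other 3, with a gap to the nearest above Dixon's critical value; chance alone gives about 1 such group in 20. All 5 were arrays of mouse 1. In Sca1- cells these were Timp2, 39919 against 23491 to 23773 (gap 0.977 of the range), Timp3, 21365 against 13382 to 13699 (0.95), Adam11, 5587 against 2773 to 2910 (0.931), and Mmp3, 1828 against 633 to 753 (0.836). In reporter-dim cells Mmp3 read 2102 against 1029 to 1094 (0.914). The 4 groups of Sca1- cells share 1 array, which also stood apart in its cell type sums. They are therefore not independent groups to set against 1 in 20. Mouse 1 also had low Xist on every array, and the part of either in these values was not tested.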

How the results depend on the processing

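The number of members called ranged, over each mouse and each array left out, from 8 to 23 when Sca1+ reporter-negative cells were set against reporter-high cells, 0 to 15 when against reporter-dim cells, 0 to 1 between the reporter-positive populations, 4 to 18 between the reporter-negative ones, 23 to 33 and 11 to 27 between Sca1- cells and the reporter-high or the reporter-dim population, and 19 to 35 for the F test. In the order of these first 4 comparisons, fits on the deposited standardized scores called 13, 0 (15 at an unadjusted p under 0.05), 0 (4) and 1. Scaling to the hybridization controls called 50 in the first, 29 between the reporter-positive populations, 58 for reporter-high against Sca1- cells and 53 by the F test, and it reversed the sign of Adam4 (0.11) and Adam8 (0.066) in reporter-high against Sca1- cells. With the epithelial covariate the counts were 0, 2 and 17 for the first comparison, the second and the one by Sca1, and 1 for reporter-high against Sca1- cells. Its reversals in the first comparison were Adam19 (-0.23), Mmp14 (-0.051), Timp2 (-0.046) and Timp3 (-0.060), and in reporter-high against Sca1- cells Adam22 (0.16) and Adam8 (0.23). With the mouse as a replicate block the second comparison had 16 calls and that between the reporter-positive populations 2. Of 49 named calls the block ended 1, Adamts15, and changed no other. The block also pairs the mouse 2 arrays, whose Xist and Eif2s3y signals went against a shared animal. For reporter-high against reporter-dim cells quantile normalization, normexp correction and an intensity trend each called 1 lower member, and a fit on the arrays compared called 1 higher member. Such a fit called 3 for Sca1+ against Sca1- reporter-negative cells. The cause of these changes was not tested, and the share of all genes called was counted for the main fit alone. The filter on dim genes, normexp and the trend ended none of the 49 named calls, and quantile normalization ended 2. Genes near array background could show small differences only in part.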
